A study of Mus musculus with 4 samples.

Results

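The deletions described here are shorter than 200 bp and were joined bluntly, with neither microhomology nor inserted bases at the join. They come from 1 meiotic break hotspot on mouse chromosome 1, read in testis DNA of mice without MRE11. All junctions with an insertion size of 0 and a deletion size under 200 bp were taken from the 4 deposited tables, and those that removed exactly the same bases were merged into 1. This gave 182 distinct deletions from 221 junctions, out of 659 distinct deletions from 804 junctions in all. The members were thus chosen by insertion size and deletion size, and both are given below as descriptions with no test.

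The animals were Mre11 conditional knockout mice of the C57BL/6 strain, labelled Mre11-/-, 5 to 7 weeks old. DNA of testicular cell suspensions from 3 animals was amplified independently and the products were pooled per amplicon, so each of the 4 overlapping amplicons was 1 library with no replicate and animals could not be told apart. The labels give spermatocytes as the cell type, which DNA cannot check, and the Cre driver of the knockout is not given in the sources used here. All libraries share the genotype and 0 control libraries are listed, so no effect of the genotype was measured.

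Meiotic recombination starts when SPO11 cuts DNA and stays bound to the ends. The MRE11-RAD50-NBS1 complex, whose nuclease subunit is MRE11, nicks the strand next to SPO11, which frees it and begins resection. A pair of cuts on the same DNA molecule can release the piece between them, and joining the outer ends then leaves a deletion. End joining can be blunt or can pair short identical stretches, called microhomology, of which a single copy remains. A blunt join has the advantage that its edges are placed to the base, whereas a microhomology join can be drawn at several equivalent positions and was deposited at the leftmost.

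The hotspot lies inside the span of Zfp451 (chromosome 1, 33761541 to 33815602, mm10), a zinc finger protein gene. Whether the stretch is exonic or intronic was not analysed here. The amplicons together covered 33764688 to 33765556, and all 4 shared 33764983 to 33765262. Below, the left edge is the first deleted base and the right edge is the last deleted base. The 5 left edges used by the most short blunt deletions are shown first, because the same edges recur throughout the results. Each sequence was rebuilt from the deposited read sequences and is printed 5′ to 3′ in the direction of increasing mm10 positions, 10 bases to either side of the break, with the deleted side in capitals.
left edge 33765002: aagcagtaatGCCATCACAA
left edge 33765023: gtgagggctgTATTAAAGGG
left edge 33765056: gaaggagagaGCCAGTGGTG
left edge 33765019: caacgtgaggGCTGTATTAA
left edge 33765032: gtattaaaggGCAGCAGCAC
The 5 most used right edges, where the capitals again mark deleted bases and the kept bases follow, were as follows.
right edge 33765097: GCTCAGATCCctgccgtgcc
right edge 33765173: CTGTCTCGCCcctctgtctg
right edge 33765123: CGCTGTAGGCtgactgttgg
right edge 33765074: GTAACGGAGAaggaaggagg
right edge 33765085: GGAAGGAGGAgggctcagat

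The 7 short blunt deletions found in at least 3 libraries are shown next, as those seen in the most libraries. The libraries come from the same 3 mice, so this counts separate amplifications and not animals. They are printed with 10 kept bases on each side and the deleted bases in capitals. All 7 lie between 33764996 and 33765123.
66-bp deletion 33764996 to 33765061: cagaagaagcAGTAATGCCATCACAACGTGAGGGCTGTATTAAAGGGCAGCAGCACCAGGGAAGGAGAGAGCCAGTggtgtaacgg
62-bp deletion 33765000 to 33765061: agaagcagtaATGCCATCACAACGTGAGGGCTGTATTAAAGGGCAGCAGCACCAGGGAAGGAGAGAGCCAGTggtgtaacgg
65-bp deletion 33765000 to 33765064: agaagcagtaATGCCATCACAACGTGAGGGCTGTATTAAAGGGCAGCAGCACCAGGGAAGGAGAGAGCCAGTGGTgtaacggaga
49-bp deletion 33765019 to 33765067: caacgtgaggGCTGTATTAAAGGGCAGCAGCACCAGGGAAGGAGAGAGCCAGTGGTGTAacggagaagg
56-bp deletion 33765019 to 33765074: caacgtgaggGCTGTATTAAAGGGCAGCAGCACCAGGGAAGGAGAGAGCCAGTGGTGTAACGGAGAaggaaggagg
31-bp deletion 33765023 to 33765053: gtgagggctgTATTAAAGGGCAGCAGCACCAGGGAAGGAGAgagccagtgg
68-bp deletion 33765056 to 33765123: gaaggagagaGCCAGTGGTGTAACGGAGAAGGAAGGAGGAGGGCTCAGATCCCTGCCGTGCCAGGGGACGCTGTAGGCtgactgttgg

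Joining the kept sides of the 62-bp deletion gives agaagcagtaGGTGTAACGG, where the capitals mark bases from the right of the deletion, and the 31-bp deletion gives gtgagggctgGAGCCAGTGG. In each printed join the bases at the break differ on both sides, which is what makes the position of the edges unambiguous. G and C made up 51.6% to 64.7% of the deleted bases of these 7 deletions, against 51.1% of the window shared by all amplicons.

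Blunt joins were a large minority of the short deletions. The 182 members (95% exact Poisson interval 157 to 210) were 38.2% of the 477 distinct deletions under 200 bp (exact binomial interval 33.8 to 42.7). Their 752 read pairs were listed by the authors as 548 molecules, 26.9% of the 2038 molecules of the series. Amplicon 1 held 54 of them with 138 read pairs, amplicon 2 held 60 with 220, amplicon 3 held 62 with 230 and amplicon 4 held 45 with 164. The Poisson intervals of the 4 counts overlapped, from 40.6 to 70.5 in amplicon 1 and from 32.8 to 60.2 in amplicon 4. The depth of the libraries is unknown, since reads that span the hotspot undeleted were not analysed here. PCR copies are not independent molecules, and the intervals cover counting error only.

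**Figure D1:**
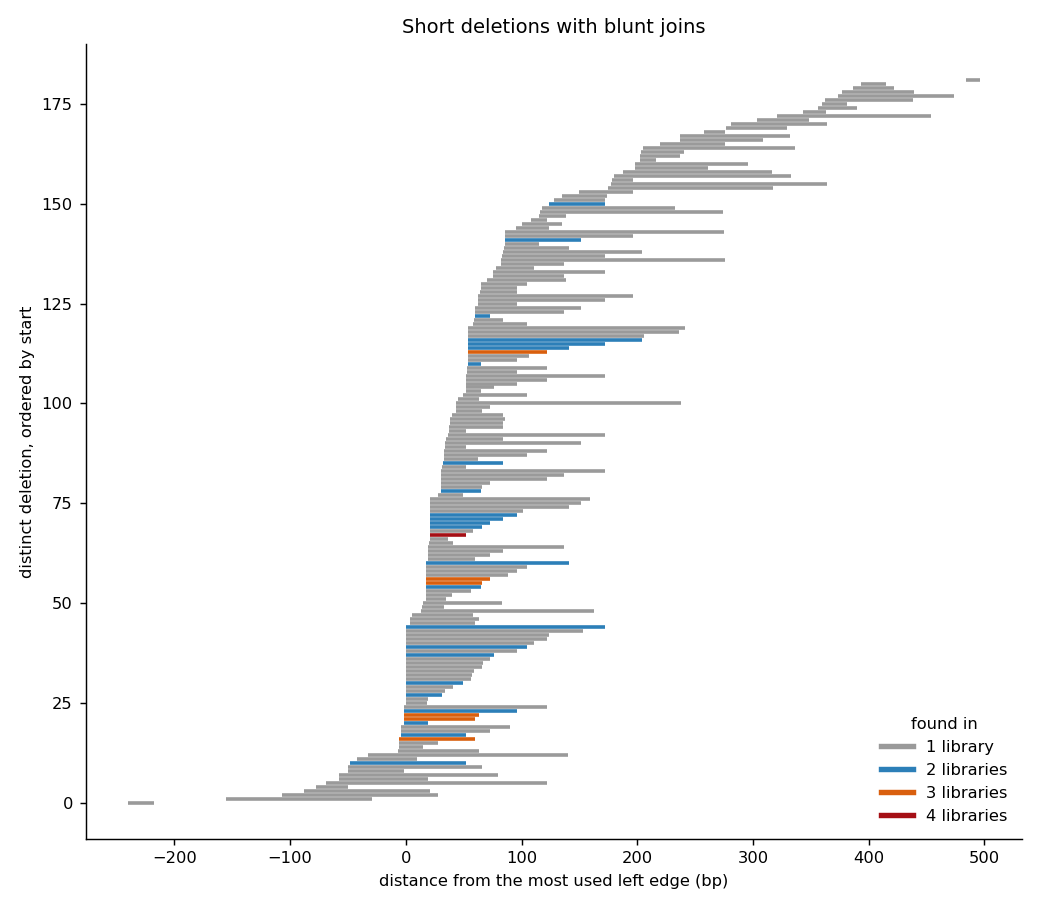
Each horizontal line is 1 of the 182 short blunt deletions, ordered by start, drawn from its first to its last deleted base in bp from the most used left edge, 33765002. Colours give the number of libraries; the 7 deletions found in 3 or 4 libraries all begin between 6 bp before and 54 bp after that edge, and vertical runs of equal starts mark edges used by many deletions.

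The members were crowded into a stretch of about 150 bp. Their midpoints fell in 33765051 to 33765100 for 57 deletions (31.3%, exact binomial interval 24.7 to 38.6) and in 33765001 to 33765050 for 55 (30.2%, 23.6 to 37.5). A further 27 (14.8%) had their midpoint in 33765101 to 33765150, and no other 50-bp bin held more than 8. By molecules the order of the first bins was the other way round, with 218 molecules in 33765001 to 33765050 and 195 in 33765051 to 33765100. Left edges had their quartiles at 33765006 and 33765084, and right edges at 33765066 and 33765173. The other 43 deletions (23.6%, 17.7 to 30.5) had midpoints outside these 3 bins, 8 before and 35 after them. Fewer amplicons covered the flanks than the centre, so the bins were not sampled equally.

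Deletions reused the same edges with different partners. The 182 deletions had 91 distinct left edges and 90 distinct right edges. Of the left edges, 28 were joined to at least 2 different right edges, and these accounted for 119 deletions (65.4%, exact binomial interval 58.0 to 72.3). Of the right edges, 28 had at least 2 left partners and accounted for 120 deletions (65.9%, 58.6 to 72.8). Both edges were reused in 87 deletions (47.8%), the left edge alone in 32, the right edge alone in 33 and neither in 30 (16.5%). The 5 most used left edges carried 57 deletions (31.3%), and the 5 most used right edges carried 45 (24.7%). Edges can coincide where they are crowded, and the left edges had quartiles as close as 33765006 and 33765084. How much reuse crowding alone would give was not tested, so the shares of reused edges have no baseline.

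**Figure D2:**
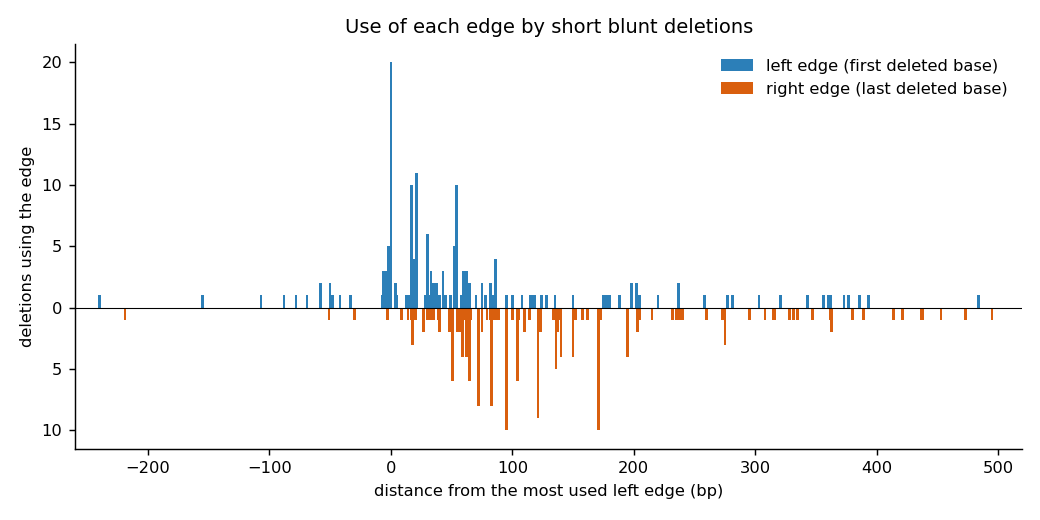
Bars above the line give the number of short blunt deletions that begin at each left edge and bars below it the number that end at each right edge, by distance in bp from 33765002. The tallest left bar is 20 deletions at 0, and the tallest right bars are 10 deletions each, at 33765097 and 33765173.

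The left edge 33765002 had 20 partners, more than any other. Its partners ran from 33765019 to 33765173, giving deletions of 18 to 172 bp, with 60 molecules and 88 read pairs in all. Of the 20 deletions, 7 used it in amplicon 1, 8 in amplicon 2 and 10 in amplicon 3, and 5 of the 20 were found in at least 2 of these libraries. The edge lies within 20 bp of the start of amplicon 4, which listed none there. It led the left edges of the other libraries taken alone. The best supported deletion from this edge, of 172 bp to 33765173, had 6 molecules in amplicon 2 and 4 in amplicon 3. It was followed by the 31-bp deletion to 33765032 with 3 and 4 molecules in the same libraries, and by the 105-bp deletion to 33765106 with 4 molecules in amplicon 1 and 1 in amplicon 2. Of the other partners, 5 rested on 1 molecule each. The same left edge also began 15 short microhomology deletions and 12 deletions of 200 bp or more. At 1 of its partners, 33765097, the join was blunt in amplicon 2 with 3 molecules, whereas 1 molecule in amplicon 3 carried 51 inserted bases between the same edges and was not counted here.

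The left edge 33765023 had 11 partners, from 33765037 to 33765160, with sizes of 15 to 138 bp and 49 molecules, and was used in all 4 libraries. Its 31-bp deletion to 33765053 was the only member found in all 4 libraries, with 2 molecules each in amplicons 1, 2 and 3 and 8 in amplicon 4. Its 45-bp deletion to 33765067 had 6 molecules in amplicon 2 and 2 in amplicon 4, and its 138-bp deletion to 33765160 had 5 molecules, all in amplicon 2. Its 63-bp deletion to 33765085 had 3 molecules in amplicon 1 and 1 in amplicon 3, and its 75-bp deletion to 33765097 had 1 in amplicon 1 and 3 in amplicon 2. This edge thus recurred in every library, and 6 of its 11 partners were seen in 1 library each. By the deposited leftmost placement it began 0 short microhomology deletions, but that placement can move an edge by the length of the microhomology, so such counts cannot be compared between kinds of join.

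The left edges 33765056 and 33765019 had 10 partners each. From 33765056 the deletions ran from 11 to 187 bp, with 54 molecules, and 5 of the 10 were found in at least 2 libraries. From 33765019 they ran from 18 to 124 bp, with 41 molecules, and 4 of the 10 were found in at least 2 libraries. The left edge 33765032 had 6 partners with 15 molecules, and 33765000 and 33765054 had 5 each, with 60 and 17 molecules. The edge 33765000 thus had as many molecules as 33765002 from fewer partners. Several much used left edges lay 2 bp from each other, namely 33765000 and 33765002, and 33765054 and 33765056.

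On the right, 33765097 and 33765173 had 10 partners each. At 33765097 the partners ran from 33765000 to 33765067, with 36 molecules over all 4 libraries. The 98-bp deletion from 33765000 led with 2 molecules in amplicon 1 and 6 in amplicon 2. The deletion of 34 bp from 33765064 had 6 molecules in amplicon 2, and that of 79 bp from 33765019 had 4 in amplicon 3. A further 2 of the 10 had 1 molecule each. At 33765173 the partners ran from 33765002 to 33765130, with 33 molecules. After the 172-bp deletion above, the 97-bp deletion from 33765077 had 6 molecules and the 110-bp deletion from 33765064 had 5, all in amplicon 3. The right edge 33765123 had 9 partners with 38 molecules, and 33765074 and 33765085 had 8 each with 24 and 20. All 5 of these right edges were used in all 4 libraries.

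Some positions served as a left edge for some deletions and as a right edge for others. Of the 91 left edges, 26 directly abutted the right edge of another member. At the break between 33765053 and 33765054, 6 deletions ended and 5 began. Between 33765020 and 33765021, 3 ended and 4 began, and between 33765061 and 33765062, 4 ended and 3 began. When the kept right side was allowed to start 2 bases before the left edge, 28 left edges had such a counterpart, and at the other offsets up to 6 bp in either direction the count lay between 16 and 26. Abutting edges were thus not more frequent than edges a few bases apart in this crowded stretch.

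Bases around the edges were uneven. Positions are counted from the break, with -1 the base to its left and +1 the base to its right. For a left edge +1 is the first deleted base, and for a right edge -1 is the last deleted base. A blunt join requires that the +1 bases of the left and the right edge differ and that the -1 bases differ, so compositions there are linked by the choice of members. The shares below, the 4 furthest above the window's share, were picked from 160 shares of a base at a position and have no test. Counting each distinct edge once, G stood at -4 of 41 of 91 left edges (45.1%, exact binomial interval 34.6 to 55.8), against 28.6% G in the shared window and 22.7% in the whole stretch. On the right, G stood at -2 of 38 of 90 edges (42.2%, 31.9 to 53.1). C stood at +4 of 33 of 90 right edges (36.7%, 26.8 to 47.5), against 22.5% C in the window and 21.2% in the whole stretch. A stood at +1 of 36 right edges (40.0%, 29.8 to 50.9), against 27.9% A in the window and 30.7% in the whole stretch, which lies inside that interval. Both baselines are given because 24 of the left and 26 of the right edges lie outside the shared window. G or C made up 52.6% of all bases within 10 bases of the edges when each deletion was counted and 50.9% when each edge was counted once, close to the 51.1% of the window and above the 43.8% of the whole stretch of 869 bases.

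**Figure D3:**
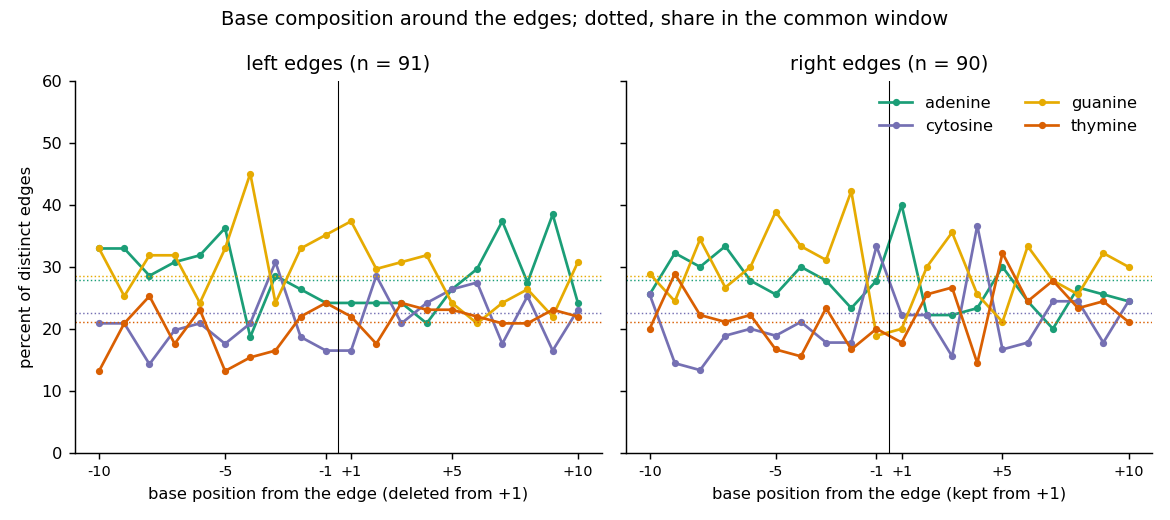
Share of each base at 10 positions to either side of the 91 distinct left edges and the 90 distinct right edges, in percent; the vertical line is the break and dotted lines give each base's share of the window shared by the 4 amplicons. Guanine peaks at -4 of the left edges (45.1%) and at -2 of the right edges (42.2%), with adenine at +1 (40.0%) and cytosine at +4 (36.7%) of the right edges.

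Many of the much used edges, but not all, lay next to the step GC. This dinucleotide reads the same on both strands. It was looked at after the base compositions had been seen, over 24 combinations of side and position, from 6 before to 6 after the break. The 4 combinations described were picked after their values were seen, so their shares are descriptions with no test. They are not the 4 highest: at left edges GC at -4 (15.4% of deletions) was more frequent than the described GC at +3 (10.4%). The stretch that holds the named edges, chr1:33764990-33765180 of mm10, is printed with its 14 GC steps in capitals.
core of the hotspot: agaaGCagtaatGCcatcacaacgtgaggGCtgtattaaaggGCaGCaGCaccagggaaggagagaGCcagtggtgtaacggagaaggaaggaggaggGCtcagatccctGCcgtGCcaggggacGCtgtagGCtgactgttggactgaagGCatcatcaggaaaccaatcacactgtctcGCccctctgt
GC began at 16 of the 280 positions of the shared window (5.71%).

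The left edge was immediately followed by GC, as the first 2 deleted bases, in 62 of 182 deletions (34.1%, exact binomial interval 27.2 to 41.4). In a further 19 (10.4%) the GC lay at +3 and +4. Either arrangement was present at the left edge of 81 deletions (44.5%, 37.2 to 52.0), against 11.4% of positions in the shared window. It was present in 27 of 54 deletions of amplicon 1, 31 of 60 of amplicon 2, 28 of 62 of amplicon 3 and 20 of 45 of amplicon 4, or 44.4% to 51.7%. Of the left edges printed above, 33765002, 33765056, 33765019 and 33765032 have GC at +1. The less used 33765000 and 33765054 have it at +3. The edge 33765023 has it at -4, the GC that follows 33765019.

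On the right, GC formed the last 2 deleted bases in 33 deletions (18.1%, 12.8 to 24.5) and lay at +3 and +4, among the kept bases, in 44 (24.2%, 18.1 to 31.1). Either was present at the right edge of 76 deletions (41.8%, 34.5 to 49.3), against 11.1% of positions in the window, and in 38.9% to 48.3% of the deletions of each library. The right edges 33765097, 33765085, 33765053 and 33765138 have GC at +3, and 33765123 and 33765106 have it as the last deleted bases. The right edges 33765074 and 33765067, with 8 and 6 partners, have no GC within 6 positions of the break. The right edge 33765173, with 10 partners, has GC only at -3, outside both arrangements. Both edges of a deletion were next to GC in one of these arrangements in 36 of the 182, and neither was in 61.

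These shares rest largely on the edges used many times. Their intervals treat deletions as independent, which those on the same edge are not, so they are too narrow. The window's shares count each position once. Counting each distinct edge once, GC followed 12 of 91 left edges directly (13.2%, 7.00 to 21.9) and lay at +3 of 14 of 90 right edges (15.6%, 8.77 to 24.7), against 5.71% of positions. GC also lay at -4 of 12 of 91 left edges, as many as at +1, though of 28 deletions (15.4%) and not 62. At +3 it lay at fewer, 10 of 91 left edges and 19 deletions. GC formed the last 2 deleted bases at 13 of 90 right edges. Without the 20 deletions that begin at 33765002, GC followed the left edge in 42 of 162 deletions (25.9%, 19.4 to 33.4). Without the deletions on the 5 most used edges of the side, it followed the left edge in 16 of 125 deletions (12.8%). It lay at +3 of the right edge in 26 of 137 (19.0%). Not all GC steps were used. Of the 16 in the window, 14 had at least 1 edge in one of these arrangements and 2 had none. Counting an edge again for each deletion that used it, 6 had at least 10. By the same count of deletions, the GC at 33765002 had 26, that at 33765056 had 23 and that at 33765019 had 15. The GC at 33764994 had none and lies within 20 bp of the start of amplicon 4. The other unused GC, at 33765171, lies just left of the right edge 33765173, which ends a base further on.

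GC at the left edge was also counted by the number of molecules and of libraries. It directly followed the left edge in 50 of 118 deletions with at least 2 molecules (42.4%, 33.3 to 51.8) and in 12 of 64 with 1 molecule (18.8%, 10.1 to 30.5). GC at +3 lay the other way, at 10 of 118 (8.47%) and 9 of 64 (14.1%). Among deletions found in at least 2 libraries the share was 16 of 31 (51.6%, 33.1 to 69.8), against 46 of 151 found in 1 (30.5%, 23.2 to 38.5). GC at +3 was present in 4 of 31 (12.9%) and 15 of 151 (9.93%). No test was made of any of these pairs of shares, because deletions on the same edge are not independent. Blunt deletions of 200 bp or more, which the rule did not include, had GC at +1 of the left edge in 32 of 69 (46.4%) and at +3 of the right edge in 26 of 69 (37.7%). Counted once per edge this was 8 of 37 left edges (21.6%) and 8 of 43 right edges (18.6%). Long deletions share left edges with the members, so their left sides are not separate evidence. Some right edges are shared as well, such as 33765297 with 9 and 33765276 with 7 long deletions of any join. The right sides are thus not wholly separate either.

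Sizes ran from 11 to 195 bp, with a median of 58 bp (95% exact order-statistic interval 52 to 68) and quartiles of 35 and 100.75 bp. The whole series also starts at 11 bp. How junctions were filtered is not given, so shorter losses cannot be judged. Up to 50 bp there were 75 deletions (41.2%), and 61 (33.5%) had 51 to 100 bp. From 101 to 150 bp there were 33 (18.1%), and the longest class held 13 (7.14%). The libraries had medians of 65, 60.5, 56 and 62 bp, in the order of the amplicons. The most frequent sizes were 56 bp with 7 deletions, 18 and 21 bp with 6 each and 52 bp with 5. Deletions of 51 to 100 bp had a mean of 3.72 molecules each. The mean was 2.60 for those of up to 50 bp, 2.61 for those of 101 to 150 bp and 3.08 for the longest class. The deletions with the most molecules, 26 and 18, both fall in the class of 51 to 100 bp. The shortest was the 11-bp deletion of 33765056 to 33765066, with 4 molecules in amplicon 2 and 3 in amplicon 4. A 12-bp loss that ends at 33765497 had 1 molecule, in amplicon 4, and the 13-bp deletion that ends at 33765074 had 1 in amplicon 1 and 2 in amplicon 3.

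The longest members, of 195, 194 and 191 bp, had 4, 3 and 3 molecules, each in 1 library. The shortest blunt deletions above the limit had 210, 211 and 212 bp, with 2, 1 and 1 molecules. On the side of the join, the nearest neighbours of the members are the 135 short deletions with 1 bp of microhomology, of which 25 were found in at least 2 libraries, with a mean of 3.40 molecules and a median of 59 bp. Only 2 short deletions had 1 inserted base. The 3 deletions that the files list as blunt while the rebuilt sequence allows microhomology were kept. Of the 221 member junctions, 165 came from reads aligned in a single piece, at most 100 bp long, and 56 from split reads, at least 45 bp long.

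**Figure D4:**
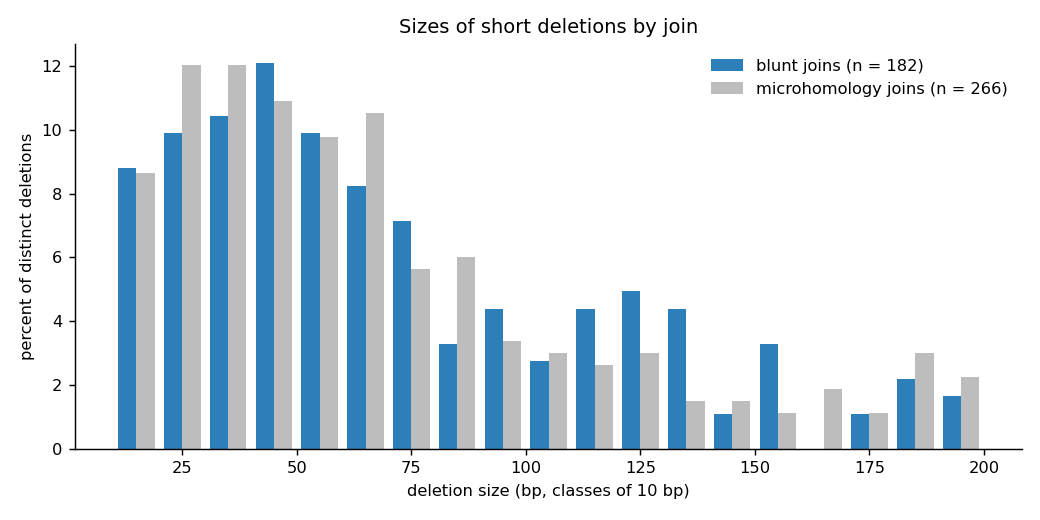
Sizes of the 182 short blunt and the 266 short microhomology deletions in classes of 10 bp, as percent of each set. Both sets are fullest below 70 bp and thin out above 80 bp; the medians are 58 and 56.5 bp.

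Support varied widely between members. A single molecule supported 64 deletions (35.2%, exact binomial interval 28.2 to 42.6), 91 had 2 to 4 molecules and 27 had at least 5. The mean was 3.01 molecules and the highest 26. The 10 deletions with the most molecules held 128 of the 548 (23.4%). The 62-bp deletion of 33765000 to 33765061 had 3, 9 and 14 molecules in amplicons 1, 2 and 3, the highest count in each of the last 2. Next came 33765000 to 33765064, of 65 bp, with 4, 5 and 9 molecules there. Both begin within 20 bp of the start of amplicon 4, which listed neither. The 66-bp deletion printed first had 3, 5 and 2 molecules there, and it too begins near that end.

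Other well supported members were uneven between libraries that could show them. The 68-bp deletion of 33765056 to 33765123 had 3, 0, 2 and 9 molecules in amplicons 1 to 4. The 70-bp deletion of 33765054 to 33765123, which starts 2 bp before it, had 11 molecules and 14 read pairs, all in amplicon 3. From 33765019 to 33765142, 124 bp were lost in 6 molecules of amplicon 2 and 3 of amplicon 4. From 33765056 to 33765205, 150 bp were lost in 3 molecules of amplicon 3 and 5 of amplicon 4. Of the other deletions from 33765019 printed above, the 56-bp one had 1, 3, 4 and 0 molecules in amplicons 1 to 4 and the 49-bp one had 1, 0, 1 and 2. The 40-bp deletion that ends at 33765106 had 8 molecules, all in amplicon 4. In amplicon 2 the 21-bp deletion that ends at 33765016 and the 29-bp deletion that ends at 33765063 had 7 molecules each and were found in no other library. In amplicon 1 the most molecules were 5, for the 100-bp deletion that ends at 33765053, which had 2 in amplicon 2.

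**Figure D5:**
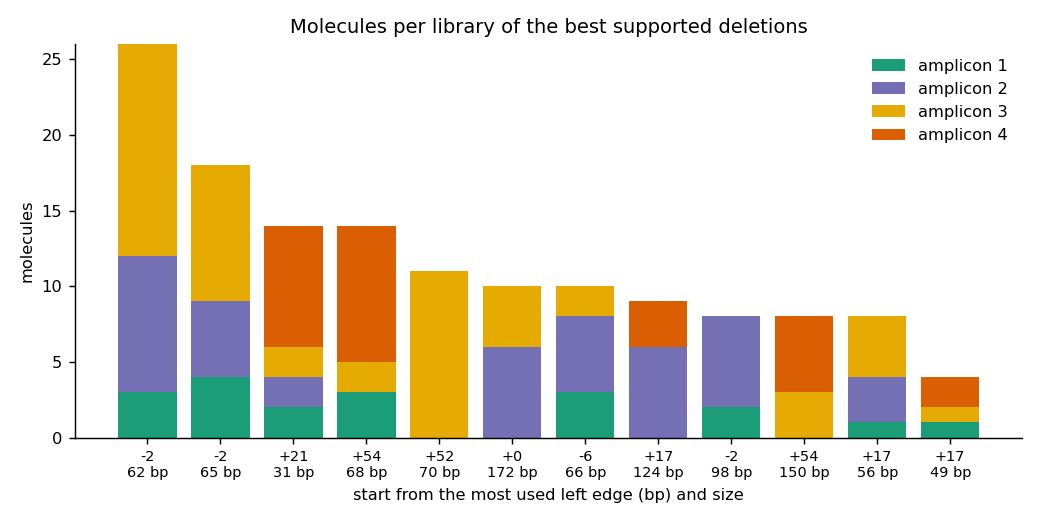
Molecules of the best supported short blunt deletions, stacked by library; the labels give each start in bp from 33765002 and the size. The 62-bp deletion leads with 26 molecules over 3 libraries, and the 70-bp deletion has all its 11 molecules in amplicon 3.

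Few members were found in more than 1 library. Of the 182, 151 came from 1 library, 24 from 2, 6 from 3 and 1 from all 4, so that 31 (17.0%, exact binomial interval 11.9 to 23.3) were seen in at least 2. Because sharing needs several libraries, the share fell to 11.4% without amplicon 1 and to 11.3% without amplicon 2. Of 110 deletions that lie at least 20 bp inside all 4 amplicons, 19 were found in at least 2 libraries (17.3%, 10.7 to 25.7), and of 54 that lie inside 3 amplicons, 12 were (22.2%, 12.0 to 35.6). The shared deletions had 222 molecules and a median of 7 each, against 326 and 2 for those of 1 library. Of the 31 shared deletions, 28 had a left edge used with at least 2 partners and 30 such a right edge. Among those of 1 library this was 91 and 90 of 151. Deletions with both edges reused had a mean of 4.10 molecules and 27 of 87 were found in at least 2 libraries. Those with neither edge reused had a mean of 1.47 and 0 of 30 were shared. These contrasts by edge reuse were not adjusted for how many amplicons could show a deletion. Of deletions inside 2 amplicons 0 of 15 were shared, and of those inside 1 amplicon 0 of 3. Members with neither edge reused include such deletions, among them the 12-bp loss that ends at 33765497. A deletion with more molecules is easier to find again in another library, so molecules and sharing are not independent of each other. Why deletions with reused edges had more molecules was not tested.

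Short blunt deletions were compared with short microhomology deletions within each library. In amplicons 1 to 4 the share of deletions with 1 molecule was 46.3%, 33.3%, 37.1% and 33.3% for blunt joins and 46.9%, 30.3%, 36.7% and 32.9% for microhomology joins. The mean difference, blunt minus microhomology, was 0.832 percentage points (SD 1.58, n = 4 libraries), ranging from -0.617 to 3.08 over the libraries, with an exact two-sided sign-flip permutation p of 0.5. Mean molecules per deletion were 1.93, 2.88, 2.58 and 2.47 for blunt joins and 2.19, 2.84, 2.80 and 2.69 for microhomology joins. The mean difference was -0.16 (SD 0.139), lower for blunt joins in 3 of 4 libraries (exact permutation p = 0.25). The share of a library's deletions found again in another library was 38.9%, 33.3%, 30.6% and 22.2% for blunt joins and 45.7%, 32.8%, 48.1% and 42.9% for microhomology joins. The mean difference was -11.1 percentage points (SD 9.76), again lower in 3 of 4 libraries (exact permutation p = 0.25). A shared deletion counts in each library that holds it. The 4 differences of this measure are therefore not independent, which the permutation does not allow for. Adjusted over the 3 measures by Benjamini-Hochberg, the exact p-values were 0.5, 0.375 and 0.375. With 4 libraries from the same 3 mice the smallest p this test can give is 0.125, so it could not pass 0.05, and a difference is neither shown nor excluded by it.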

How the data were processed

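Testis DNA of 3 Mre11-/- mice was amplified in 576 PCRs of 22 cycles per amplicon, each on 50 ng, and read as pairs of 300 bp. The submitters' processing notes name BWA 0.7.17, fastp 0.23.2 and the build mm10. How junctions were called and filtered, and how read pairs became molecules, is not given in the sources used here. Whole counts of read pairs and molecules per junction were deposited by the authors, not normalized.

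The region was rebuilt as the most frequent read base at each position (at least 153 read sequences, 99.9% of bases matching), with edges as deposited. The start of 1 junction, not a member, was taken from its end and size. Shares have exact Clopper-Pearson and counts exact Poisson intervals at 95%. Members and measures were chosen with earlier results of these data known. Named deletions are the 10 with the most molecules, those in at least 3 libraries, the 3 shortest and longest, the 3 leading each library and those on the 2 most used edges of each side; named edges are the 5 most used per side, and other edges were named after their values were seen. The rebuild and merging were tested on simulated data. The software was scipy 1.17.1 and numpy 2.4.6 with pandas 2.3.3, run in Python 3.11.15, and figures were drawn by matplotlib 3.10.9.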

Additional observations from a re-analysis of the deposited data

Results flagged for a closer look

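Read sequences of the members, used above to rebuild the region, held differing bases in the 10 bp on either side of the join. There were 6 in amplicon 1, 11 in amplicon 3 and 4 in amplicon 4, where a count of 0 would allow up to 3, and amplicon 2 had 0. Over the 4 libraries this was 4.79 per 1000 bases near the join against 0.920 per 1000 elsewhere in the same reads, in 12 of 221 read sequences with up to 4 such bases in 1 read. No control library was listed, and the difference was not tested.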

How the results depend on the processing

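Of 125 values recomputed for 9 summaries under planned settings, 93 stayed within the reported value's 95% interval and 32 moved. For the number of deletions the limit was 1.5 times the reported value in either direction. With at least 2 read pairs, 24.8% were found in at least 2 libraries, 5.6% had 1 molecule and the mean was 3.93 molecules. With at least 3 read pairs, 94 deletions were left, with 33.0% shared, 2.13% of 1 molecule, a mean of 4.62, 41.5% in the fullest bin and 54.4% G or C near the edges. With at least 2 molecules, 118 were left, 26.3% shared, 0% of 1 molecule by construction and a mean of 4.10. Under 100 bp the median was 47 bp. Merging edges within 2 bp gave 23.6% shared, a mean of 3.49 and 58.0% with a reused left edge. The shared window gave a mean of 3.34, 75.5% and 76.2% with reused left and right edges, 39.2% in the fullest bin and 54.7% G or C. Counting partners of every kind of deletion gave 80.8% and 86.3% with reused left and right edges. Bins of 25 and 100 bp held 23.1% and 61.5%. Within 5 bases G or C was 54.3%, and each edge counted once gave 50.9%. Leaving out each amplicon gave 139 to 149 deletions, medians of 56 to 63 bp, 11.3% to 16.3% shared, 35.6% to 36.6% of 1 molecule, means of 2.64 to 2.98, 57.7% to 68.7% and 61.7% to 68.3% with reused left and right edges, 32.2% to 36.1% in the fullest bin and 52.4% to 53.0% G or C. The GC shares were added after the data were seen and were recomputed under settings from the same list. GC directly after the left edge ranged from 13.2% to 43.6% and GC at +3 of the right edge from 15.6% to 28.7%. Both were lowest with each edge counted once. No paired analysis was possible because of the replicate numbers, which are 1 in every amplicon and pair no samples; the blunt and microhomology deletions were compared within each library instead. Unknown depth limits all counts of deletions seen in 1 library.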
